A study of Mus musculus with 6 samples.

Results

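Msx1, Msx2, Prrx1, Lhx2, Lhx9, Shox2, Meis1, Meis2, Sall1 and Sall3 are transcription factor genes known for patterning the limb bud, and their transcripts were followed through DID ("digits in a dish") cultures. The 10 genes were taken by symbol from the 32286 genes of the count matrices, by a rule that itself used no measured value. The cultures were seeded with dissociated distal forelimb mesenchyme of wildtype CD-1 mouse embryos at embryonic day 11.5, pooled over embryos, and no group carried an engineered allele or an added agent. Single-cell RNA sequencing with the 10x Genomics 3' kit was done at Day 2, Day 7 and Day 10, with 2 independent cultures per day as replicates A and B. Day 2, Day 7 and Day 10 were therefore compared over 6 libraries, and each p-value between days measures the spread between 2 cultures of a day.

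The 10 genes act at different places in the limb bud. Msx1 and Msx2 encode homeodomain repressors that respond to BMP signals, and Prrx1 encodes a paired-related homeodomain factor found throughout the early limb mesenchyme. Lhx2 and Lhx9 encode LIM-homeodomain factors that relay FGF signals of the apical ridge to the distal mesenchyme. Shox2 is required for the upper limb skeleton, and Meis1 and Meis2 encode homeodomain cofactors of HOX proteins that mark the proximal bud. Sall1 and Sall3 encode zinc-finger repressors of the distal bud, the part that forms the hand.

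Promoter sequences are shown for Msx1, Lhx2, Shox2 and Sall1, which fell at both steps of the culture and stand for the BMP-responsive, LIM-homeodomain, proximal and distal groups. Each is the window of 250 bases before the first RefSeq start site, read 5′ to 3′ on the gene's strand of GRCm38.p6, with CG dinucleotides in capitals.
Msx1, chr5:37824586-37824835, minus strand: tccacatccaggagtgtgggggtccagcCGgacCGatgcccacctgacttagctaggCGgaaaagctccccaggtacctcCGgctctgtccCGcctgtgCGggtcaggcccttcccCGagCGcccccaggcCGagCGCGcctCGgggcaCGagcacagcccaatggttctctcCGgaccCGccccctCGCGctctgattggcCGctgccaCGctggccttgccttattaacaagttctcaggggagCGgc
Lhx2, chr2:38339031-38339280, plus strand: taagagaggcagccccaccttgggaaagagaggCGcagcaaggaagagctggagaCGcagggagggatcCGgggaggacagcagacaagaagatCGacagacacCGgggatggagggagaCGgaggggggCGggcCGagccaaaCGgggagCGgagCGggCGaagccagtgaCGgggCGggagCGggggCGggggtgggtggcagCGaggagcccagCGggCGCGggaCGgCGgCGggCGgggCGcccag
Shox2, chr3:66981772-66982021, minus strand: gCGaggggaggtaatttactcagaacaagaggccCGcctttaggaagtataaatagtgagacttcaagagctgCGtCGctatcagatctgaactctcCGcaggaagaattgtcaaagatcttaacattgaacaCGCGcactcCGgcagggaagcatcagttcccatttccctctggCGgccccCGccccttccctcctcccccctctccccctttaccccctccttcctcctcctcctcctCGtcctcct
Sall1, chr8:89044163-89044412, minus strand: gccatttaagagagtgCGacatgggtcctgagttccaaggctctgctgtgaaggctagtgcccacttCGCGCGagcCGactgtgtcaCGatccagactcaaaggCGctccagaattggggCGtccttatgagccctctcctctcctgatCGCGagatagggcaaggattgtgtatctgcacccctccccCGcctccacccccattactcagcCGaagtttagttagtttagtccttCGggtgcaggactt
The windows held 20 CG dinucleotides in Msx1, 25 in Lhx2, 11 in Shox2 and 13 in Sall1, where the median of 32851 promoters of this length was 6. Their GC content was 68% in Msx1, 72.8% in Lhx2, 55.6% in Shox2 and 56.4% in Sall1, against a median of 52.4%. Windows were read for 9 of the 10 genes, with Sall3 left out by choice, and 7 of these 9 held more CG dinucleotides than the median. The homeodomain motif TAATTA, which is its own reverse, was in the windows of Msx2 and Prrx1 (2 of 9) and in 4.84% of all promoters. All 250 bases of the Msx2 window and 60 of those of Prrx1 lay in annotated exons, as did 170 in Meis2, 16 in Meis1 and 13 in Lhx9. The MEIS motif TGACAG, or CTGTCA on the other strand, was in that of Lhx9 (1 of 9) and in 15.9% of all promoters.

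The libraries differed in depth and makeup. Between 9448 and 16486 cells per library passed the filters, with 178022112 to 260245417 UMIs (unique molecular identifiers, 1 per captured transcript) in each. The median cell had 3871 UMIs in Day 2 replicate B and between 8062 and 24197 in the other 5 libraries. Any 2 libraries shared between 24 and 67 cell barcodes. The mesenchyme label was checked against markers of other cells. Levels are in CPM, the UMIs of a gene relative to all UMIs of the library. The summed level of 7 myogenic markers was 537 and 414 CPM on Day 2, 49.7 and 21.3 on Day 7, and 3.24 and 8.48 on Day 10, and that of 4 erythroid genes went from 59.2 and 142 at Day 2 to at most 0.0257 in the later libraries. The 6 immune markers went the other way, from 23.1 and 11.4 at Day 2 to 96.9 and 122 at Day 10, while 4 endothelial markers stayed at or under 1.08, 3 Schwann cell markers at or under 5.63 and 4 surface ectoderm markers at or under 6.23 in every library.

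All 10 genes were highest at Day 2. From Day 2 to Day 7 all 10 fell, between 1.73-fold for Meis1 and 4.09-fold for Sall3. From Day 7 to Day 10, Msx1, Lhx2, Shox2 and Sall1 fell again, Prrx1 and Lhx9 rose, and Msx2, Meis1, Meis2 and Sall3 did not pass the test. All 10 were still lower at Day 10 than at Day 2, by up to 6.25-fold for Sall1, but Meis1 was not called when cells were thinned. From here on, CPM of whole cultures are taken after TMM scaling of sums over all cells of a library, except those of marker genes. CPM of marker genes and of the ranges of cells described below are not TMM-scaled. Ratios of such range levels therefore differ from the log2 values of the fits, which used TMM. In sums over cells, fewer cells that express a gene and less RNA per cell cannot be told apart. The kit counts 3' ends, so levels were compared between libraries and not between genes.

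**Figure D1:**
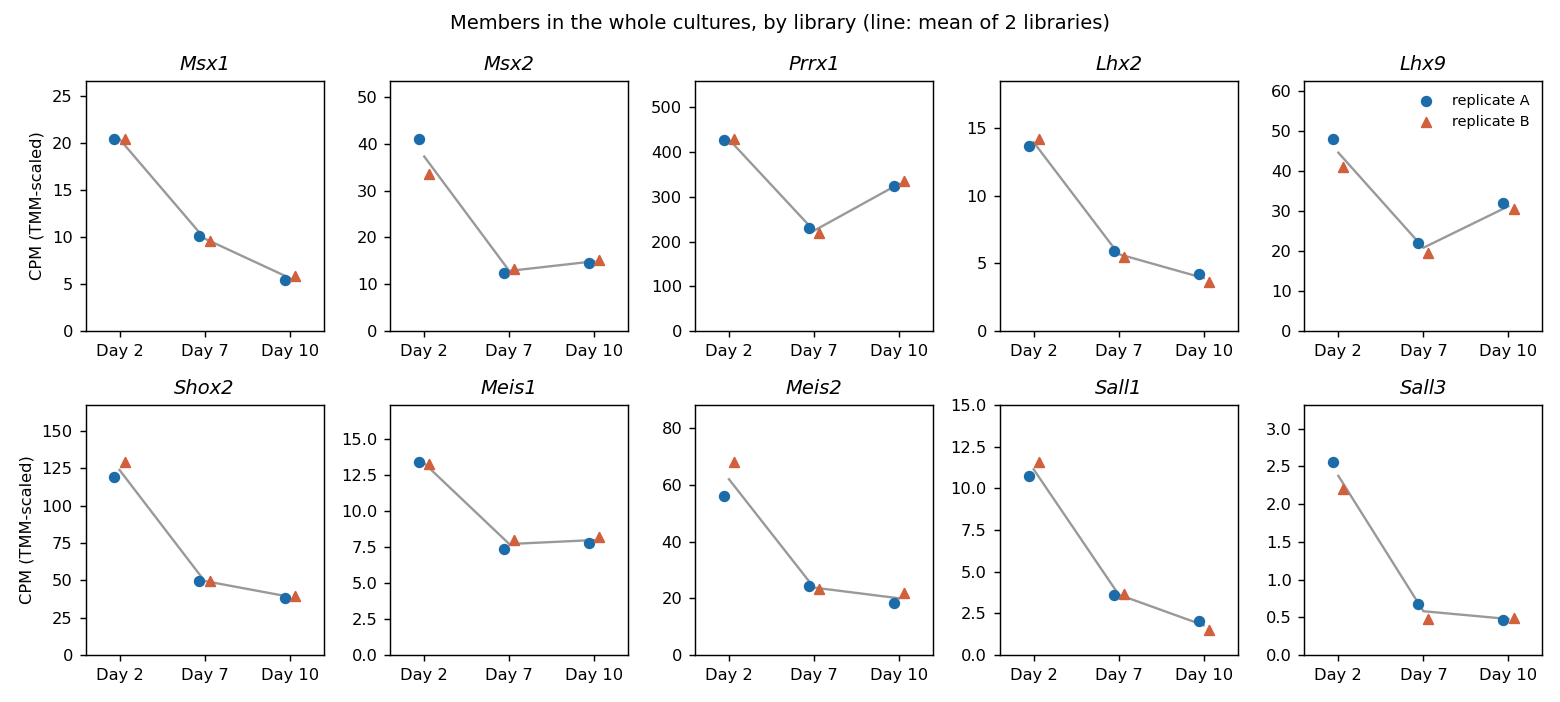
CPM after TMM scaling (y axis, linear and from 0) for each of the 10 genes in the whole cultures at Day 2, Day 7 and Day 10 (x axis). Circles are replicate A, triangles replicate B and the line joins the means of 2 libraries. All 10 genes are highest at Day 2, and Prrx1 and Lhx9 are higher at Day 10 than at Day 7.

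Among the BMP-responsive genes, Msx1 stood at 20.5 and 20.4 CPM in replicates A and B on Day 2, 10.2 and 9.55 on Day 7, and 5.47 and 5.84 on Day 10. The days did not overlap, and Msx1 fell by 1.05 ± 0.06 (SE) on the log2 scale to Day 7 and by a further 0.80 ± 0.06 to Day 10 (adjusted p = 6.47e-07 and 3.38e-05; edgeR's quasi-likelihood test with Benjamini-Hochberg adjustment over 18987 genes, as for each adjusted p between days). Msx2 stood at 41.1 and 33.5 on Day 2, 12.4 and 13.3 on Day 7, and 14.6 and 15.3 on Day 10. Msx2 fell by 1.53 ± 0.09 to Day 7, and its later difference of 0.21 ± 0.09 missed the threshold (adjusted p = 0.0815), although both Day 10 libraries lay above both Day 7 libraries. In 4 of 14 other settings that last difference was called, with adjusted p between 0.0115 and 0.775.

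Prrx1, the broad mesenchymal factor, stood at 427 and 430 CPM on Day 2, 230 and 219 on Day 7, and 324 and 335 on Day 10. Day 7 was lowest and Day 10 lay between the other days without overlap. The log2 change was -0.93 ± 0.06 to Day 7 (adjusted p = 9.98e-07), 0.55 ± 0.06 from Day 7 to Day 10 (adjusted p = 0.000119), and -0.38 ± 0.06 from Day 2 to Day 10 (adjusted p = 0.000226). Lhx9 had the same order of days, with 48.1 and 41.1 on Day 2, 22.1 and 19.6 on Day 7, and 31.9 and 30.5 on Day 10. Lhx9 fell by 1.10 ± 0.09 and then rose by 0.58 ± 0.09 (adjusted p = 4.97e-06 and 0.000734). Its LIM-homeodomain relative Lhx2 instead kept falling, from 13.7 and 14.2 through 5.93 and 5.44 to 4.20 and 3.64, with log2 changes of -1.29 ± 0.08 and -0.54 ± 0.08 (adjusted p = 1.24e-06 and 0.000987).

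Of the proximal genes, Shox2 stood at 119 and 129 CPM on Day 2, 49.3 and 49.6 on Day 7, and 38.1 and 39.7 on Day 10. Its replicates were close within each day, and it fell by 1.32 ± 0.06 and then by 0.35 ± 0.06 (adjusted p = 1.34e-07 and 0.00114). Meis2 stood at 56.1 and 68.0 on Day 2, 24.4 and 23.1 on Day 7, and 18.2 and 21.8 on Day 10. The fall of 1.38 ± 0.11 to Day 7 passed the test (adjusted p = 4.64e-06), and the later difference of -0.25 ± 0.11 did not (adjusted p = 0.0785), though it was called in 5 of 14 other settings. Meis1 stood at 13.4 and 13.3 on Day 2, 7.39 and 8.02 on Day 7, and 7.78 and 8.18 on Day 10, so the later days overlapped (log2 difference 0.05 ± 0.06, 95% interval -0.09 to 0.19). Both falls of Meis1 lost their call when each cell was thinned to 3000 UMIs. The log2 change to Day 7 was then -0.24 (adjusted p = 0.0860) and that to Day 10 was -0.14 (adjusted p = 0.282), against -0.79 and -0.74 without thinning.

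The distal genes had the largest falls among the 10 from Day 2 to Day 7 and from Day 2 to Day 10. Sall1 stood at 10.7 and 11.5 CPM on Day 2, 3.60 and 3.64 on Day 7, and 2.03 and 1.52 on Day 10, with no overlap between days. It fell by 1.62 ± 0.12 and then by 1.02 ± 0.12 (adjusted p = 2.75e-06 and 0.000276), so that Day 10 was 6.25-fold below Day 2. Sall3 stood at 2.55 and 2.20 on Day 2, 0.680 and 0.479 on Day 7, and 0.458 and 0.495 on Day 10. The fall of 2.03 ± 0.18 to Day 7 passed the test (adjusted p = 1.12e-05), and the later days overlapped, with a difference of -0.29 ± 0.19 (95% interval -0.73 to 0.16).

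Changes between days were common among all genes. From Day 2 to Day 7, 34.6% of the genes tested fell and 35.7% rose, against 10 of 10 and 0 of 10 members. The members' median log2 change was -1.31 and that of all genes 0.01. From Day 7 to Day 10, 25.9% fell and 26.3% rose, against 4 and 2 members, with medians of -0.27 and -0.02. From Day 2 to Day 10, 38.2% fell and 39.0% rose, against 10 and 0 members, with medians of -1.65 and 0.00. The 3 comparisons share libraries, so they are not independent of each other. Without the cells that held at least 3 myogenic or at least 3 immune UMIs, the counts of members called were again 10, 6 and 10. Such cells were few. The myogenic ones were 514 of 9448 and 1084 of 16486 cells at Day 2, and the immune ones 25 to 223 per library. Leaving them out could change little, so nothing was read from these counts. The makeup of the mesenchyme moved over the same days. The summed level of 7 cartilage markers was 1818 and 1974 CPM on Day 2, 14603 and 13509 on Day 7, and 8834 and 8069 on Day 10. That of 6 bone and hypertrophy markers was 47.5 and 52.7, then 119.8 and 114, then 820.4 and 1012, and that of 7 division markers 1556 and 1607, then 539.8 and 554, then 452 and 531. Their part in the changes of the 10 genes was not tested.

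Other patterning factors were read from a list of 48 genes, of which 47 were tested. By Day 7, 39 of the 47 had fallen and 5 had risen, and by Day 10, 39 were below and 6 above Day 2, with medians of -0.70 and -0.87, the latter the same with Sall4 at the bound given below. From Day 7 to Day 10, 14 rose and 11 fell, with a median of 0.00. These last counts lay close to the shares of all genes, of which 26.3% rose and 25.9% fell. By Day 7, 34.6% of all genes had fallen and 35.7% had risen. By Day 10, 38.2% were below and 39.0% above Day 2. The largest rises from Day 2 to Day 10 were in Meis3, a relative of Meis1 and Meis2 (2.13 ± 0.56 to 9.99 ± 0.33 CPM, mean ± SD of 2 libraries), and in the Iroquois genes Irx3 (13.5 ± 0.1 to 49.1 ± 4.3) and Irx5 (7.23 ± 0.12 to 21.5 ± 1.0). Sall4 and Pitx1 were among the 3 genes with the largest falls. Sall4 had 86 and 68 UMIs at Day 2 and 0 in the other 4 libraries, which makes it at least 55.2-fold lower at Day 10 against a floor of 3 UMIs over both libraries. Pitx1, a hindlimb factor, fell by 5.35 ± 0.32 on the log2 scale (adjusted p = 6.56e-07). Such floors, and the intervals given for ratios of UMIs and for shares of cells, cover counting error only. Among close relatives of the 10 genes, Sall2 fell by 1.09 ± 0.07 from Day 2 to Day 10, and Prrx2 rose by 0.71 ± 0.07.

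Of 32 genes of limb bud signals, 29 were tested, and Fgf4, Shh and Wnt3 had too few UMIs. By Day 7, 23 of the 29 had fallen and 4 had risen, by Day 10 24 were below and 4 above Day 2, and from Day 7 to Day 10, 15 rose and 9 fell. The medians were -0.96, -0.70 and 0.21, against 0.01, 0.00 and -0.02 for all genes. Of all genes, 34.6%, 38.2% and 25.9% fell and 35.7%, 39.0% and 26.3% rose in the same order. Fgf8, a signal of the apical ridge, went from 156 and 262 UMIs at Day 2 to 2 and 3 at Day 10, a ratio of 89.8 (95% interval 38.2 to 278), and Wnt7a, a signal of the dorsal ectoderm, from 22 and 13 to 0 and 3, a ratio of 12.5 (95% interval 3.95 to 63.7). The WNT inhibitor Dkk1 fell by 3.79 ± 0.21 (adjusted p = 3.72e-07). The BMP antagonist Grem1 rose by 2.08 ± 0.05, Dhrs3, an enzyme that limits retinoic acid, by 1.32 ± 0.05, and the Hedgehog receptor Ptch1 by 0.62 ± 0.09 (adjusted p = 5.59e-09, 7.56e-08 and 0.000262).

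To place the genes among the cells, ranges of cells were set by marker lists that hold none of the 10 genes. Among the cells of a library with at least 3000 UMIs, a range is the 10% with the highest share of UMIs from the list, each with at least 3 such UMIs (5% for bone and hypertrophy, 1% for myogenic). A range is a slice of a score and not a cell type. Each range was compared with all other cells of the same libraries, with the library as a block, so that 6 range sums stood against 6 sums of the rest. The contrast averages over the 3 days, and the spread that its p-value measures includes differences in the range effect between days. Fits with an effect per day measure the spread between the cultures of a day.

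The HOX13 range, set by Hoxa13, Hoxd13, Hoxd12 and Hottip, which mark the future hand, held more of 5 genes and less of 4. Msx1, Lhx2, Lhx9, Sall1 and Sall3 were higher in it and Shox2, Meis1, Meis2 and Prrx1 were lower, 9 of 10 called where 24.1% of all genes tested were called in either direction. Msx2 differed by 0.30 ± 0.11 and missed the threshold (adjusted p = 0.0719; edgeR's quasi-likelihood test, as for each adjusted p of a range). In 4 of 13 other settings it was called, with adjusted p between 0.0263 and 0.435. The range held 415 to 857 cells per library with a median of 4 to 8 UMIs of the list, and between 209 and 311 cells lay within 10% of its lower limit. The median depth was 14804 to 26972 UMIs in the range and 12046 to 26114 in the rest. All 9 calls were made in each of the other settings, including those that left out 1 library.

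Msx1 stood at 122 and 108 CPM in the HOX13 range on Day 2, 24.4 and 28.6 on Day 7, and 18.4 and 17.6 on Day 10. The other cells of the same libraries held 15.4, 16.9, 8.68, 7.84, 4.15 and 4.60, so Msx1 was higher in the range in every library (log2 difference 2.08 ± 0.18, adjusted p = 0.000148). Sall1 was likewise higher in all 6, with 37.3, 42.9, 13.1, 13.1, 6.54 and 6.29 against 10.2, 10.9, 2.80, 2.86, 1.58 and 1.06 (2.00 ± 0.11, adjusted p = 1.90e-05). Sall3 was 2.48 ± 0.22, Lhx9 1.12 ± 0.09 and Lhx2 0.96 ± 0.11 higher on the log2 scale.

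Shox2 was the gene most depleted from the HOX13 range among the 10. It stood at 10.7, 14.4, 5.51, 8.54, 6.76 and 9.73 CPM in the range of the 6 libraries, in the order Day 2, Day 7 and Day 10 with replicate A before B, and at 143, 159, 48.3, 48.2, 38.0 and 40.02 in the rest. The levels in the range lay below the rest in all 6 libraries (-3.03 ± 0.24, adjusted p = 9.74e-05). Meis2 stood at 6.15, 9.42, 7.51, 7.38, 6.43 and 8.42 in the range and at 67.6, 84.9, 23.8, 22.2, 17.9 and 21.7 in the rest, again lower in every library (-2.26 ± 0.32, adjusted p = 0.00169). The levels of Meis2 in the range did not separate the days, while those in the rest were highest at Day 2. Meis1 was 1.96 ± 0.23 lower (adjusted p = 0.000634) and Prrx1 0.83 ± 0.16 lower (adjusted p = 0.00724).

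**Figure D2:**
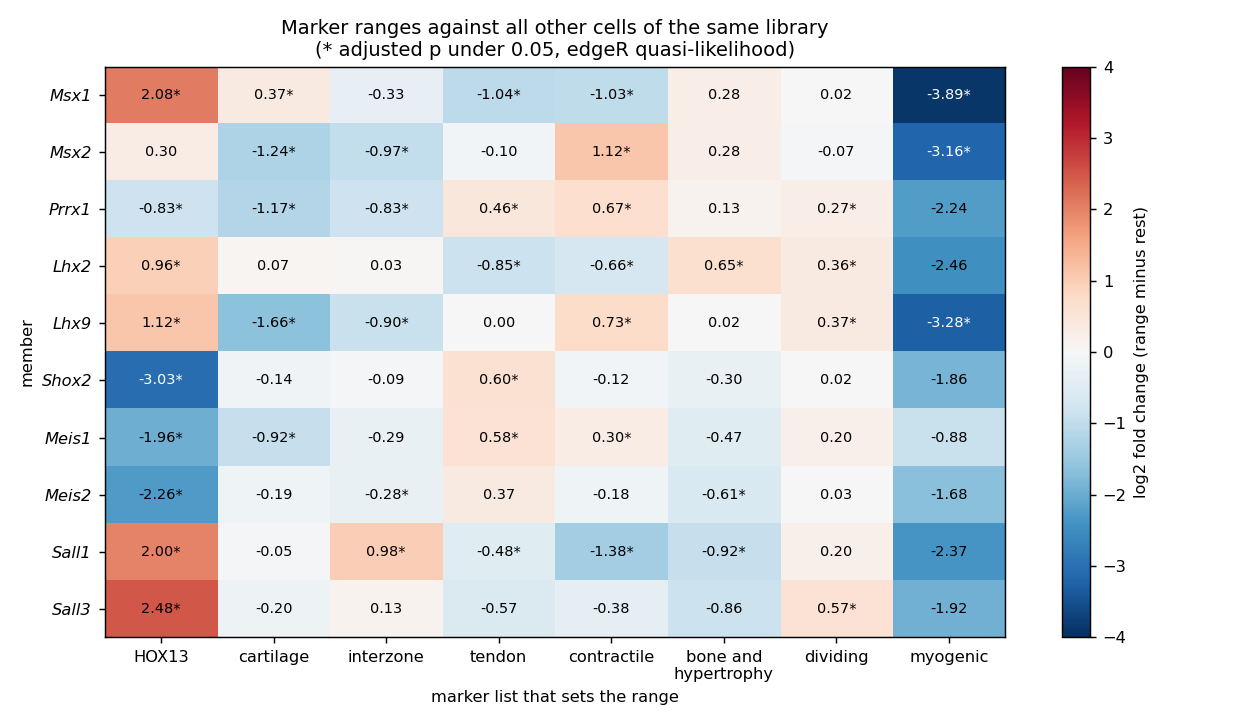
Log2 fold change of each of the 10 genes (rows) in 8 marker ranges (columns) against all other cells of the same libraries, averaged over 3 days and 6 libraries, with red for higher and blue for lower in the range. Asterisks mark an adjusted p under 0.05. The HOX13 column runs from 2.48 for Sall3 to -3.03 for Shox2.

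In the cartilage range, set by Col2a1, Acan and 5 other cartilage genes, Msx2, Prrx1, Lhx9 and Meis1 were lower and Msx1 was higher, 5 of 10 called where 47.1% of all genes were. Lhx9 stood at 38.2 and 43.0 CPM in the range at Day 2 against 55.1 and 47.4 in the rest, at 5.05 and 3.55 against 21.6 and 19.7 at Day 7, and at 5.13 and 5.12 against 32.2 and 31.4 at Day 10. Lhx9 was lower in the range in all 6 libraries, by 1.66 ± 0.34 (adjusted p = 0.00517). Msx2 was 1.24 ± 0.21, Prrx1 1.17 ± 0.16 and Meis1 0.92 ± 0.23 lower on the log2 scale, the last not called with smaller ranges (adjusted p = 0.0930). The higher level of Msx1, 0.37 ± 0.13 (adjusted p = 0.0424), was called in 7 of 13 other settings, with adjusted p between 0.0130 and 0.698, and was lost without any one of Day 7 replicate A, Day 7 replicate B, Day 10 replicate A and Day 10 replicate B. The cartilage range was shallower than the rest in replicate A of each day and in Day 10 replicate B, with medians of 8215 to 15370.5 UMIs per cell against 20027 to 26910. In Day 2 replicate B it was deeper (17621 against 11661.5), and in Day 7 replicate B about equal (17130 against 17035). The part of depth in these differences was not tested beyond the thinned cells.

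The place of most of the 10 genes relative to the cartilage range differed between Day 2 and Day 10, with fewer calls in thinned cells. The lower limit of that range moved as well, from 0.519% and 0.601% of a cell's UMIs at Day 2 to between 3.13% and 3.59% later, with a median of 120 and 135 UMIs of the list at Day 2 and 475 to 828.5 later, so the ranges of different days held cells with different amounts of cartilage transcripts. The effect of the cartilage range at Day 10 differed from that at Day 2 in 9 of 10 genes, where 30.2% of all genes differed, higher in 4 and lower in 5. Shox2 was 1.04 ± 0.08 lower in the cartilage range than outside it at Day 2, 0.45 ± 0.08 higher at Day 7, and 0.16 ± 0.08 higher at Day 10, the last not called (adjusted p = 0.120). Its levels were 73.5 and 81.5 CPM in the range against 138 and 156 in the rest at Day 2, and 55.5 and 61.2 against 45.4 and 44.7 at Day 7. Meis2 turned in the same way, from 1.42 ± 0.08 lower at Day 2 to 0.54 ± 0.08 higher at Day 7 and 0.28 ± 0.08 higher at Day 10, each called. Sall1 turned in the opposite way, from 0.98 ± 0.11 higher at Day 2, with 25.5 and 24.1 against 11.1 and 11.97 CPM, to 0.70 ± 0.19 lower at Day 7 and 0.86 ± 0.24 lower at Day 10. Lhx2 went from 0.76 ± 0.09 higher to 0.38 ± 0.14 lower at Day 7 and 0.30 ± 0.14 lower at Day 10, the last not called (adjusted p = 0.0879). With cells thinned to 3000 UMIs the differences between Day 10 and Day 2 were called in 4 of 10 genes, Shox2, Meis2, Lhx9 and Prrx1. They were smaller and not called for Sall1 (-0.77 in place of -1.84, adjusted p = 0.362), Lhx2 (-0.66 in place of -1.06, adjusted p = 0.322) and Msx2 (-0.36 in place of -0.85, adjusted p = 0.546). For Msx1 (0.77 in place of 0.79, adjusted p = 0.126) and Meis1 (1.06 in place of 1.03, adjusted p = 0.0723) the size stayed about the same and the call was lost.

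The effect of the HOX13 range also changed, in 9 of 10 genes where 27.4% of all genes changed, and 8 of the 9 differences were upward. The lower limit of this range fell from 0.0294% and 0.0259% of a cell's UMIs at Day 2 to 0.0122% and 0.0105% at Day 10. The median was 7 and 8 UMIs of the list at Day 2 and 5 in both Day 10 libraries. The ranges of different days thus held cells with different amounts of transcripts of the list. For Shox2, Meis1 and Meis2 the depletion shrank from Day 2 to Day 10, from -3.77 ± 0.10 to -2.29 ± 0.11, from -2.79 ± 0.13 to -1.39 ± 0.12 and from -3.48 ± 0.08 to -1.46 ± 0.08. Over the 6 libraries their levels in the range ran from 5.51 to 14.4, 2.19 to 3.14 and 6.15 to 9.42 CPM. In the rest they ran from 38.0 to 159, 7.02 to 16.2 and 17.9 to 84.9 CPM. Msx1 alone among the 9 went down, from 2.66 ± 0.07 at Day 2 to 2.00 ± 0.11 at Day 10. The sign of the HOX13 effect was the same at all 3 days for the 9 genes other than Msx2. The differences of Lhx9, Sall1 and Sall3 were called neither without Day 2 replicate B nor without Day 10 replicate B (adjusted p between 0.0539 and 0.372), and that of Sall1 was not called without Day 2 replicate A (adjusted p = 0.167) or with DESeq2 (adjusted p = 0.0622). That of Lhx9 was 0.11 with ranges halved in size (adjusted p = 0.667), and was called neither with at least 1 UMI of the list (adjusted p = 0.0706) nor with DESeq2 (adjusted p = 0.0819). With cells thinned to 3000 UMIs, 10 of the 18 differences of both ranges were called. In the HOX13 range the difference of Meis1 was then 0.61 in place of 1.40 (adjusted p = 0.614), that of Sall1 0.06 in place of 0.49 (adjusted p = 0.946) and that of Sall3 -0.15 in place of 1.08 (adjusted p = 0.948).

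**Figure D3:**
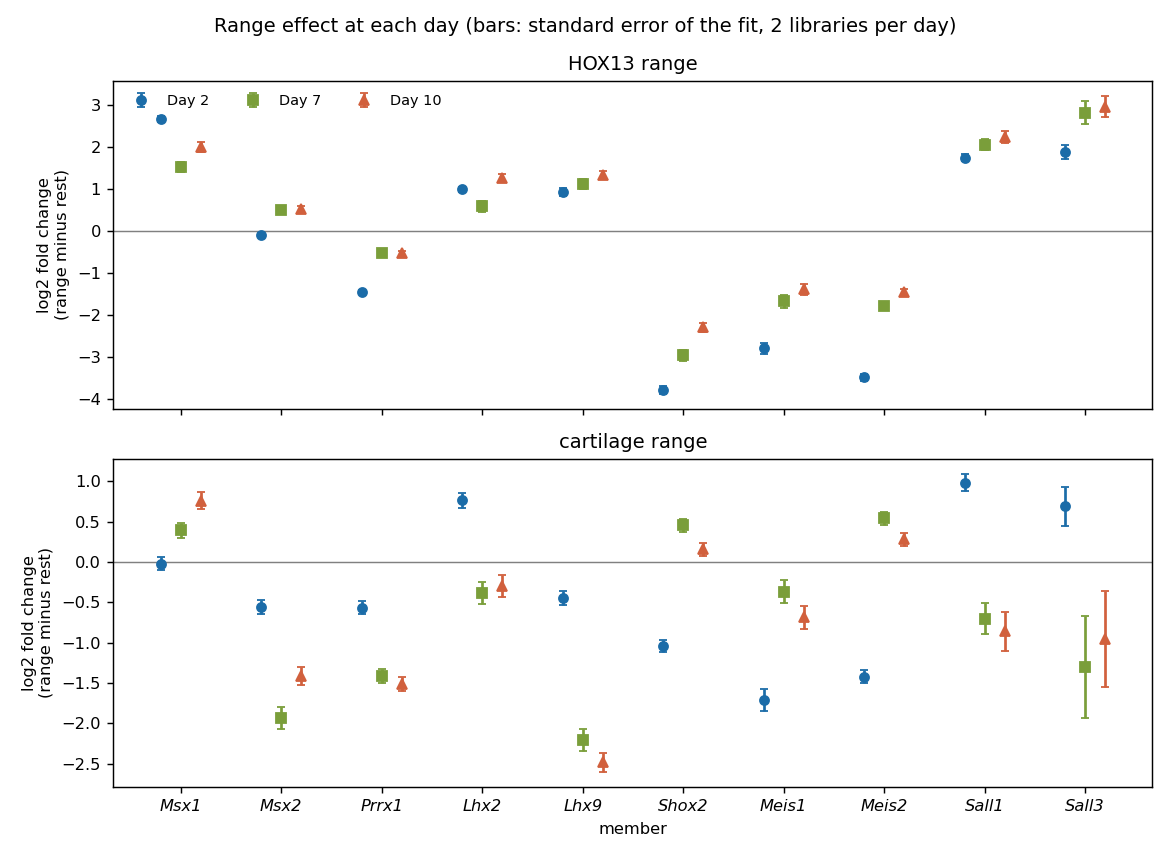
Log2 fold change of each gene in the HOX13 range (upper panel) and the cartilage range (lower panel) against the rest at Day 2, Day 7 and Day 10, each from 2 libraries, with bars for the standard error of the fit. In the lower panel Shox2 and Meis2 go from below 0 at Day 2 to above 0 at Day 7, while Sall1 and Lhx2 go from above 0 to below 0.

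The days were also compared inside the cartilage range and outside it. The shares of all genes given for this comparison count rises and falls together. From Day 2 to Day 7, 7 of 10 genes fell and 2 rose inside the range, where 59.0% of all genes were called, and 10 of 10 fell outside it, where 70.1% were. Meis1 rose by 0.49 ± 0.20 and Meis2 by 0.44 ± 0.15 inside the range (adjusted p = 0.0451 and 0.0254), and Shox2 differed by 0.08 ± 0.12 (adjusted p = 0.575). Neither rise was called without Day 2 replicate A or without Day 7 replicate A, and that of Meis1 was not called without Day 2 replicate B (adjusted p between 0.113 and 0.330). Outside the range Shox2, Meis1 and Meis2 fell by 1.44 ± 0.06, 0.88 ± 0.07 and 1.53 ± 0.12. From Day 2 to Day 10, 8 of 10 fell inside the range (67.6% of all genes called) and 10 of 10 outside (77.0%). Sall1 fell by 4.30 ± 0.24 inside and by 2.46 ± 0.12 outside, and Lhx9 by 2.48 ± 0.14 and 0.44 ± 0.08. The level of Sall1 inside the range was as low as 0.487 CPM. Its difference in range effect between Day 10 and Day 2, given above, was not called in thinned cells. Days inside and outside the range were not compared in thinned cells. From Day 7 to Day 10, 4 fell and 2 rose both inside the range (23.3%) and outside it (53.0%), but not all were the same genes. Msx1, Shox2 and Sall1 fell and Prrx1 rose in both parts. Inside the range Meis2 also fell and Msx2 rose, and outside it Lhx2 fell and Lhx9 rose. The count inside was 1 without Day 10 replicate B and 3 without Day 10 replicate A, and with ranges halved in size all 6 calls were lost (adjusted p between 0.103 and 0.670).

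The contractile range, set by Cnn1, Tagln, Acta2 and Myl9, held more Msx2, Lhx9, Prrx1 and Meis1 and less Sall1, Msx1 and Lhx2, 7 of 10 called where 57.7% of all genes were. Msx2 stood at 64.2 and 55.7 CPM in the range at Day 2 against 42.8 and 35.6 in the rest, at 26.4 and 27.1 against 8.53 and 8.56 at Day 7, and at 21.6 and 20.7 against 12.1 and 13.3 at Day 10. It was higher in all 6 libraries, by 1.12 ± 0.15 (adjusted p = 0.000494), while Msx1 was 1.03 ± 0.09 lower (adjusted p = 6.60e-05). Sall1 was 1.38 ± 0.12 lower, Lhx9 0.73 ± 0.21 higher, Prrx1 0.67 ± 0.16 higher, Lhx2 0.66 ± 0.21 lower and Meis1 0.30 ± 0.05 higher on the log2 scale. With thinned cells the difference of Meis1 was 0.05 (adjusted p = 0.779) and that of Lhx2 -0.50 (adjusted p = 0.0892), and Lhx2 was not called without Day 10 replicate A either (adjusted p = 0.0926). The contractile range was deeper than the rest, with medians of 21291 to 43180 UMIs per cell against 12529 to 24484.

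In the tendon range, set by Tnmd, Scx and Mkx, 6 of 10 genes were called where 25.2% of all genes were. Shox2 (0.60 ± 0.17), Meis1 (0.58 ± 0.08) and Prrx1 (0.46 ± 0.10) were higher and Msx1 (-1.04 ± 0.31), Lhx2 (-0.85 ± 0.20) and Sall1 (-0.48 ± 0.15) lower. At Day 2 Shox2 stood at 258 and 305 CPM in this range against 120.0 and 132 in the rest, and at Day 7 at 44.8 and 54.0 against 46.2 and 45.5. At Day 10 it was higher in the range again, by 0.55 ± 0.05 (adjusted p = 2.29e-07). Genes that were not called over all days differed on single days. Lhx9 was 1.201 ± 0.06 lower in the range at Day 2, and 0.91 ± 0.06 and 0.26 ± 0.05 higher at Day 7 and Day 10. Msx2 was 0.73 ± 0.06 lower at Day 2, 0.48 ± 0.07 higher at Day 7 and not called at Day 10 (adjusted p = 0.973). Meis2 was 1.14 ± 0.06 higher at Day 2 and was called on neither later day (adjusted p = 0.884 and 0.504). The depletion of Msx1 was 2.20 ± 0.13 on Day 2, 0.50 ± 0.13 on Day 7 and 0.38 ± 0.14 on Day 10. The calls of Prrx1 and Lhx2 were made in all 13 other settings, that of Meis1 in all but the thinned cells (0.30, adjusted p = 0.209), and those of Msx1, Shox2 and Sall1 in 8, 9 and 5 of them. Without either Day 2 library or without Day 10 replicate A, 3 genes were called.

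In the interzone range, set by the joint markers Gdf5, Erg, Wnt9a and Wnt4, 5 of 10 genes were called where 15.4% of all genes were. Erg and Wnt4 made up most of the list, since Gdf5 went from 22.7 and 19.998 CPM of the whole libraries at Day 2 to 2.17 and 2.41 at Day 10 and Wnt9a stayed at or under 3.72. Msx2, Lhx9, Prrx1 and Meis2 were lower, by 0.97 ± 0.13, 0.90 ± 0.08, 0.83 ± 0.08 and 0.28 ± 0.06. Sall1 was higher, 0.98 ± 0.28 (adjusted p = 0.0470), with 28.6 and 31.6 CPM against 10.9 and 11.9 at Day 2, 9.61 and 11.1 against 3.04 and 3.03 at Day 7, and 1.34 and 1.35 against 1.97 and 1.44 at Day 10. Sall1 thus lay above the rest in the 4 libraries of Day 2 and Day 7 and below it in both Day 10 libraries, and its call was made in 8 of 13 other settings. Without Day 2 replicate B, 3 of the 10 genes were called.

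The other 3 ranges held fewer differences that stood in every setting. In the dividing range Sall3, Lhx9, Lhx2 and Prrx1 were higher, 4 of 10 where 35.4% of all genes were called, by 0.57, 0.37, 0.36 and 0.27 on the log2 scale. The count was 1 with thinned cells and 2 without Day 7 replicate A, Day 7 replicate B or Day 10 replicate A, and the dividing range was deeper than the rest (24412 to 34554.5 against 11675 to 25524 UMIs per median cell). In the bone and hypertrophy range Lhx2 was higher and Meis2 and Sall1 lower, 3 of 10 where 7.89% of all genes were called, and none was called without Day 2 replicate A or without Day 2 replicate B. Effects on single days lay on opposite sides for Lhx9 (0.25, 1.02 and -1.27 on Day 2, Day 7 and Day 10), Msx2 (0.30, 1.36 and -0.89) and Prrx1 (0.36, 0.53 and -0.50), each called. The cells of the range held a median of 6 or 7 UMIs of the list at Day 2 and Day 7 and 114 or 115 at Day 10. The leading marker also changed, from Runx2 at Day 2 (31.7 and 35.1 CPM of the whole libraries, with Ibsp at 0.0876 and 0.281) to the bone matrix gene Ibsp at Day 10 (499.6 and 721, with Runx2 at 59.2 and 63.0), so the range is not one class of cells over the days.

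Myogenic cells, which reach the limb from the somites, lacked most of the transcripts at Day 2. The myogenic range held 88 and 96 cells at Day 2 and 15 to 30 in the later libraries. The median cell of the range had 577.5 and 468.5 UMIs of the list on Day 2, 101 and 6 on Day 7, and 3 and 4 on Day 10. The ranges of Day 7 replicate B and of Day 10 therefore held few cells with more than a few myogenic transcripts. Prrx1 had 10 and 99 UMIs in it at Day 2, or 4.25 and 35.6 CPM against 486 and 505 in the rest. Shox2 had 2.12 and 6.47 CPM against 135 and 150, Lhx9 0.849 and 2.16 against 54.5 and 47.7, and Msx1 0 and 0.719 against 23.3 and 24.1. At Day 2, 9 of 10 genes were lower in the range, where 22.0% of all genes were, and Sall3 was not called (-2.52 ± 1.15, adjusted p = 0.0750). Averaged over the 3 days, 3 of 10 were called, Msx1, Msx2 and Lhx9, where 11.3% of all genes were called, and 1 without Day 2 replicate B or without Day 7 replicate A. The effect at Day 2 alone was added after the data had been seen.

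The difference between the Day 10 and the Day 2 effect was also tested in the other 6 ranges, after their values had been seen. It was called for 8 of 10 genes in the tendon range, where 18.7% of all genes were called, for 7 in the interzone range (33.1%) and for 5 in the bone and hypertrophy range (21.7%). It was called for 3 in the contractile range (32.8%), 3 in the dividing range (35.3%) and 7 in the myogenic range (16.6%). Of these 33 differences, 12 were called in all 12 other settings, and with thinned cells 15 of the 60 combinations were called. Effects called on opposite sides on different days were also found for Shox2 and Sall3 in the contractile range, Msx1 in the interzone range, and Msx1 and Msx2 in the dividing range.

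Cells with both members of a pair were counted after thinning each cell of at least 3000 UMIs to 3000, and divided by the number that independent detection would give in that library. Of 45 pairs, the ratio was above 1 in all 6 libraries in 12 and in none in 14. Meis1 with Meis2 had a median ratio of 2.23 (1.79 to 3.06 over 6 libraries), Msx1 with Lhx2 2.18 (1.38 to 2.94), Msx1 with Lhx9 1.98 (1.57 to 2.92), Lhx2 with Lhx9 1.86 (1.497 to 2.21) and Msx2 with Lhx9 1.72 (1.23 to 2.497). Shox2 with Meis2 stood at 1.33 (1.002 to 1.51). Several pairs of Shox2 or Meis1 with Msx1, Lhx2 or Sall1 lay under 1 in every library, such as Shox2 with Sall1 at 0.44 (0.24 to 0.53), Lhx2 with Shox2 at 0.55 (0.30 to 0.86), Msx1 with Shox2 at 0.63 (0.35 to 0.71) and Lhx2 with Meis1 at 0.36 (0.25 to 0.59). Pairs with Sall3 and some with Meis1 rested on few cells. Over all libraries, 17 cells held Sall1 and Sall3, 22 held Lhx2 and Meis1, and 18 held Meis1 and Sall1. These ratios are descriptions of 6 libraries, and the parts of free RNA and of doublets in them were not tested.

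**Figure D4:**
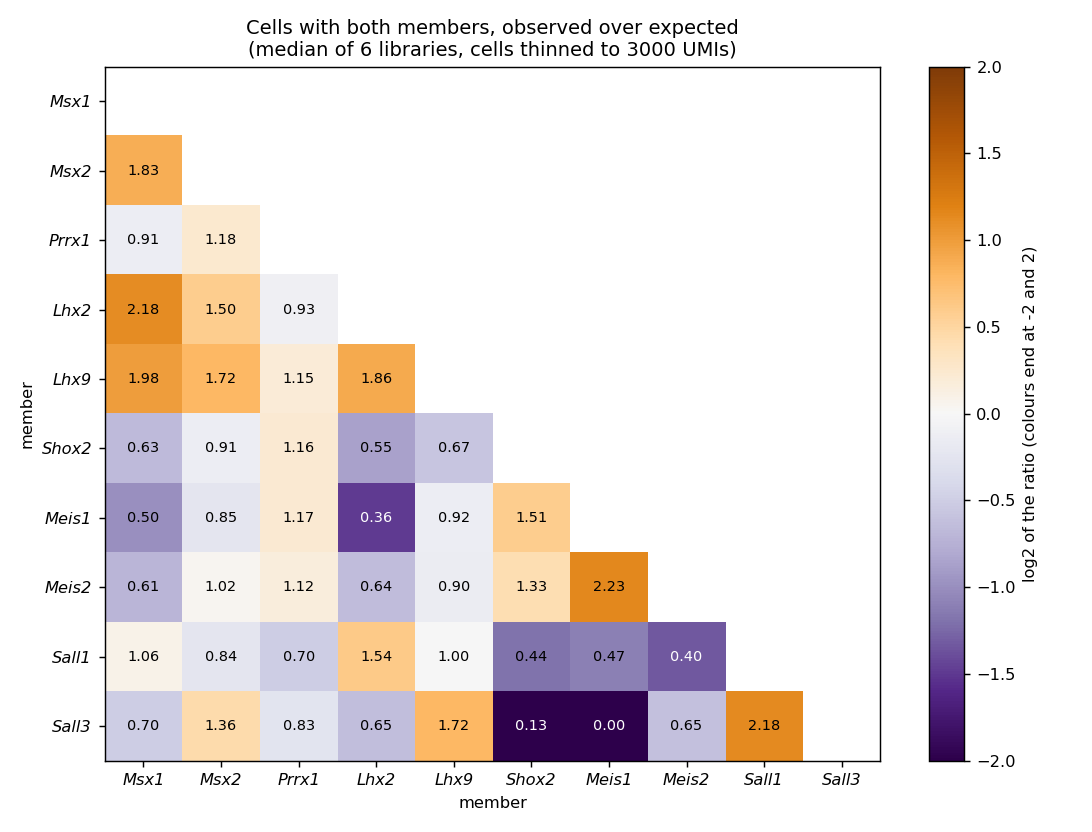
Median over 6 libraries of the ratio of observed to expected cells with UMIs of both genes of a pair, printed in each square and coloured on a log2 scale (orange above 1, purple below 1). Meis1 with Meis2 reaches 2.23 and Msx1 with Lhx2 2.18, while Shox2 with Sall1 stands at 0.44.

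Few cells held many of the genes at this depth. At 3000 UMIs per cell, a cell held UMIs of 1.37 and 1.45 of the 10 genes on average in the Day 2 libraries, 0.709 and 0.680 in those of Day 7, and 0.837 and 0.857 in those of Day 10. The share of cells with none was 21.6% and 17.5% on Day 2, 45.4% and 48.0% on Day 7, and 36.6% and 35.2% on Day 10. Cells with 3 or more made up 13.6% and 14.8% at Day 2 and between 1.91% and 2.47% later.

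Shares of cells with a UMI were read against immune cells of the same library, which should lack these transcripts. Immune cells numbered 24 and 32 on Day 2, 33 and 55 on Day 7, and 146 and 202 on Day 10 after thinning. Prrx1 had a UMI in 50.5% of all cells in Day 10 replicate A (95% exact binomial interval 49.5 to 51.6) against 19.9% of immune cells (13.7 to 27.3), and in 51.6% against 15.8% in replicate B. Shox2 was in 9.63% and 10.0% of cells at Day 10 against 2.05% and 2.97% of immune cells. Before thinning, the median depth at Day 10 was 26187 and 24819 UMIs for all cells and 21424.5 and 22365 for immune cells. In Day 2 replicate B, Prrx1 had a UMI in 64.5% of cells and in 17 of 32 immune cells (53.1%, interval 34.7 to 70.9), where immune cells had a median of 8508 UMIs and all cells 12878. Over 10 genes and 6 libraries, the interval of the share lay above that of immune cells in 10 of 60 cases, 2 at Day 2, 1 at Day 7 and 7 at Day 10. With 24 to 55 immune cells at Day 2 and Day 7, the interval around an immune share of 0 was itself wide, so nothing was read from the other cases of those days. At Day 10, with 146 and 202 immune cells, 13 of 20 shares had an interval that did not lie above that of immune cells. An immune share of 0 there still had an upper limit of 2.49% and 1.81%. Msx1, Lhx2, Sall1 and Sall3 had shares of at most 1.71% at Day 10, so none could pass and nothing was read from them. The other such shares could not be told from the immune background.

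Across 24 sums, 8 ranges at 3 days with replicates averaged, the genes whose levels followed the members most closely were ranked by Pearson's r on log2(CPM + 1) among 10120 genes other than the 10 themselves. The sums share libraries and overlap in cells, so r is a description. Outside the 10, Shox2 and Meis2 had the same 3 closest genes, Zfhx4 (0.86 and 0.82), Sfrp1 (0.82 and 0.82) and Hoxd9 (0.82 and 0.78). Sall1 was closest to Fam172a (0.95), Pthlh (0.94) and Bmpr1b (0.94), and Sall3 to Bmpr1b (0.90), Lnpk (0.90) and Bend4 (0.89). Msx1 was closest to Cyp26b1 (0.87), the retinoic acid-degrading enzyme, and to Lgr4 (0.87) and Adamts9 (0.86). Msx2 was closest to Twist2 (0.93), Prrx1 to Sdc1 (0.93), Lhx2 to Pdzd8 (0.91), Lhx9 to Rasl11a (0.91) and Meis1 to Ncald (0.79). For Shox2, Meis1, Meis2, Lhx9 and Sall3 the closest gene of all was itself one of the 10. Among the 10, r was 0.96 for Shox2 with Meis2, 0.88 for Meis1 with Meis2, 0.92 for Msx2 with Lhx9, 0.91 for Sall1 with Sall3, and it was 0.85 for Msx1 with Lhx2 and 0.17 for Shox2 with Msx1.

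The gene positions on GRCm38 bear on how reads were assigned. Shox2, at chr3:66971727-66981771 on the minus strand, overlaps Rsrc1 on the opposite strand, and Lhx2, at chr2:38339281-38369733 on the plus strand, overlaps Gm13584 and Gm27197 on the opposite strand. Meis1, at chr11:18879817-19018985, and Prrx1, at chr1:163245119-163313710, both on the minus strand, each overlap annotated genes on their own strand, among them 2610001A08Rik and Gm26523, so reads of these pairs are uncertain. No such overlap was found for Msx1, Msx2, Lhx9, Meis2, Sall1 and Sall3.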

How the data were processed

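Single-cell libraries of DID cultures were compared at Day 2, Day 7 and Day 10, with 2 cultures per day. The authors aligned the reads to GRCm38 (mm10) with STAR within Cell Ranger 6.1.2 and deposited UMI counts per gene and barcode, not normalized. Their later Seurat 4.1.0 objects were not used here. From these counts, cells were kept by the limits the study gives per library (more than 200 and fewer than 7500 genes, UMI minimums of 800 or 1000, mitochondrial shares under 25% to 40% and ribosomal shares under 35% to 40%). No doublet caller was run.

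UMIs were summed per library, or per range of cells and library, and fitted with edgeR 4.0.16 (filterByExpr, TMM, quasi-likelihood test, Benjamini-Hochberg adjustment over all genes tested, call at an adjusted p under 0.05). TMM factors lay between 0.927 and 1.14. The fit of the days was tested on simulated data with 18357 genes and 200 changed, and recovered 92% of 2-fold and 100% of 4-fold changes, with 9 false calls. The fit of the HOX13 range recovered 78% and 88%, with 8 false calls. All simulated sums had the same spread, a coefficient of variation of 0.07 beyond counting error. Apart from the 200 genes, the simulated libraries did not differ between days or ranges, and no range effect differed between days. Far larger shares of genes were called in the data, so these rates need not hold for the real fits. The alternatives tried were DESeq2 1.42.0, RLE scaling, no low-count filter, all barcodes, deeper or thinned cells, other sizes and depths of the ranges, a replicate block, and leaving out each library. Proteins and the Sall3 promoter are not shown.

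The members, the marker lists, the 2 companion lists and the tests were chosen with earlier results of these data known. Every member was named, as were the 3 genes of each companion list with the largest called rise and fall from Day 2 to Day 10, and the 3 genes most like each member among those with a mean of at least 5 CPM. Sall2, Prrx2 and Shox2's overlapping genes were named in addition. Some genes that this rule selects are not reported here.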

Additional observations from a re-analysis of the deposited data

Results flagged for a closer look

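The difference itself between the Day 10 and Day 2 effect of a range was tested first for 20 combinations of gene and range, in the cartilage and HOX13 ranges, and 18 passed, given as log2 values of Day 10 minus Day 2 with 2 libraries per day. In the cartilage range the differences were 1.70 for Meis2, 1.201 for Shox2, 1.03 for Meis1 and 0.79 for Msx1, all toward a higher level relative to the rest at Day 10. They were -2.04 for Lhx9, -1.84 for Sall1, -1.06 for Lhx2, -0.95 for Prrx1 and -0.85 for Msx2, all toward a lower level relative to the rest. The difference of Sall3 was -1.65 ± 0.62 (SE) and was not called (edgeR's quasi-likelihood test, adjusted p = 0.0584).

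In the HOX13 range the differences were 2.02 for Meis2, 1.48 for Shox2, 1.40 for Meis1, 1.08 for Sall3, 0.94 for Prrx1, 0.62 for Msx2, 0.49 for Sall1 and 0.41 for Lhx9, and -0.66 for Msx1. That of Lhx2 was 0.28 ± 0.12 and was not called (edgeR's quasi-likelihood test, adjusted p = 0.0968). Between the days the share of cells that the markers define and the lower limits of both ranges changed. The depth of the libraries and the stage of the culture also changed, and none of these can be told apart from the others.

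After the values had been seen, the same test was made in the other 6 ranges, where 33 of 60 combinations passed. With thinned cells 15 of the 60 were called. In the tendon range the differences were 1.82 for Msx1, 1.46 for Lhx9, 1.14 for Lhx2, 0.73 for Msx2 and 0.68 for Sall1, and -1.23 for Meis2, -0.62 for Shox2 and -0.50 for Meis1. In thinned cells those of Msx1 (0.93), Lhx2 (0.17), Msx2 (0.57) and Sall1 (0.24) were not called. Those of Lhx9, Meis2, Shox2 and Meis1 still were. In the interzone range they were 1.302 for Msx1, 0.72 for Msx2, 0.57 for Lhx2, 0.38 for Shox2 and 0.30 for Prrx1, and -1.51 for Sall1 and -0.85 for Meis1. Only those of Msx2, Shox2 and Prrx1 were called in thinned cells. The lower limit of this range also fell, from 0.0326% and 0.0279% of a cell's UMIs at Day 2 to 0.0105% and 0.0103% at Day 10. In the bone and hypertrophy range they were 0.67 for Meis2, -1.52 for Lhx9, -1.19 for Msx2, -0.86 for Prrx1 and -0.47 for Shox2. In the contractile range they were 0.30 for Shox2, 0.24 for Prrx1 and -1.06 for Lhx2, and in the dividing range 0.18 for Prrx1, -0.42 for Sall1 and -1.23 for Msx1. That of Lhx2 in the contractile range was -0.69 in thinned cells and not called. In the myogenic range they were 5.85 for Msx2, 4.68 for Shox2, 4.57 for Msx1, 4.18 for Prrx1, 3.49 for Meis2, 3.23 for Meis1 and 3.17 for Lhx9. The myogenic values set ranges of 88 and 96 cells at Day 2 against 15 and 24 cells at Day 10 with a median of 3 and 4 UMIs of the list, and where a gene had few or no UMIs they depend on the prior count of the fit.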

How the results depend on the processing

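The counts of members called between days were 9 or 10, 6 to 8, and 9 or 10 of 10 for Day 7 against Day 2, Day 10 against Day 7 and Day 10 against Day 2 in 14 other settings, against 10, 6 and 10. With the replicate block they were 10, 7 and 10. The letters did not pair the libraries, with correlations of their deviations between days of -0.05, -0.09 and -0.08 over 9695 genes. RLE scaling moved the median of all genes to between -0.01 and 0.00. With ranges halved in size, 3 members were called in the cartilage range (against 5), 2 in the dividing range (4), 6 in the myogenic range (3) and 0 of 10 between Day 7 and Day 10 inside the cartilage range (6). With thinned cells, 1 was called in the bone and hypertrophy range (3), 1 in the dividing range and 7 in the myogenic range, and 10 of the 18 differences between days in the range effects. The myogenic count was 5 with cells of at least 1000 UMIs, 0 with at least 1 UMI of the list, 8 without the library block and 9 for the effect at Day 2 alone, an alternative added after the data were seen. With 1 library left out, the counts ran from 0 to 3 for bone and hypertrophy, 3 to 5 for tendon (against 6), 3 to 5 for the interzone, 2 to 5 for dividing, 1 to 3 for myogenic cells and 1 to 6 between Day 7 and Day 10 inside the cartilage range. Of the values called either as reported or in the other setting, 6 changed sign. Values of Msx2, Meis1 and Sall3 from Day 7 to Day 10, not called as reported, also lay on both sides of 0. The difference of Sall3 in the HOX13 range was -0.15 with thinned cells, and the change of Meis2 inside the cartilage range from Day 2 to Day 10 was 0.69 with ranges halved in size (adjusted p = 0.00351). Among the differences between days added for the other 6 ranges, that of Lhx2 in the bone and hypertrophy range was -0.81 and that of Lhx9 in the interzone range -0.47 with ranges halved in size. In the myogenic range that of Meis1 was -7.51 with thinned cells, and that of Lhx9 ran from -9.97 to 4.10 with 1 library left out, the lowest without Day 10 replicate B. With cells thinned to 1000 UMIs the median ratio of cells with both genes moved to the other side of 1 in 9 of 45 pairs. The cause of these changes was not tested. The number of immune cells, 24 to 55 per library at Day 2 and Day 7 and 146 and 202 at Day 10, limits what can be read from shares of cells.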
